A study of Bos taurus with 20 samples.

Results

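The miRNAs described here are the 5 whose genes lie in the HOX clusters, namely bta-miR-10a, bta-miR-10b, bta-miR-196a, bta-miR-196b and bta-miR-615. They were chosen by name out of the 1029 bovine miRNAs in the deposited table, and all 5 names were found there. Small RNA was sequenced from the spermatozoa of 20 Holstein-Friesian bulls, 10 of high fertility (HF) and 10 of low fertility (LF), with 1 library per bull. The question of the comparison was whether sperm miRNA levels differed between bulls of high and low field fertility. Both groups were mature bulls of an artificial insemination population, chosen from the extremes of a fertility score that was adjusted in a statistical model, and no group received a treatment. Frozen-thawed straws of several ejaculates were combined for each bull, and the pellet was washed in a buffer that lyses somatic cells before RNA was extracted. Each bull is therefore a biological replicate whose value averages its ejaculates, and the error of a repeated library was not measured.

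HOX genes encode transcription factors that set position along the body axis, and in mammals they stand in 4 clusters, HOXA to HOXD. The miRNA genes among them are transcribed within the clusters, and their mature miRNAs can repress HOX transcripts of the same or another cluster. miR-10a and miR-10b have near-identical mature sequences with the same seed, the stretch at the 5′ end that pairs with targets. miR-196a and miR-196b form a second such pair, best known for cleaving the HOXB8 transcript, and miR-615 has a seed of its own.

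The RefSeq annotation of the bovine assembly ARS-UCD2.0 held 6 miRNA genes for the 5 members, and each lay among HOX genes. MIR10A lay inside the span of HOXB3, with HOXB5 and HOXB4 as its nearest neighbours. MIR10B lay inside the span of HOXD4, between HOXD3 and HOXD8. miR-196a had 2 genes, MIR196A-1 inside the span of HOXB9, between HOXB13 and HOXB8, and MIR196A-2 between HOXC9 and HOXC10. MIR196B lay between HOXA10 and HOXA9, and MIR615 lay inside HOXC5, between HOXC4 and HOXC6. All 4 HOX clusters were thus represented, and the reads of bta-miR-196a could not be divided between its 2 genes.

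The reads counted on miRNAs ranged from 103203 (HF replicate 17) to 3097581 (HF replicate 2) per HF library and from 310184 to 1640179 per LF library. The deposited values were normalized counts, that is, counts per library size on the scale of CPM divided by a TMM factor, which corrects for differences in library composition. The smallest level that a library was taken to show, 3 reads, stood at 1.19 on this scale in HF replicate 2 and at 27.6 in HF replicate 17. HF replicate 17 stood apart in depth and in several of the values below, and values that turned on it are given without it as well. The 5 male germ cell miRNAs examined (the miR-34 and miR-449 families) had reads in every bull, with a summed normalized count between 25829 and 77203.

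The 2 miR-10 miRNAs made up nearly all of the HOX cluster miRNA reads. bta-miR-10b had a normalized count of 4484 ± 1847 (SD, n = 20) and ranked 32 of 1029 by mean level, and bta-miR-10a had 4105 ± 1903 and ranked 35. bta-miR-196a was at 276.5 ± 86.7 and ranked 109, and bta-miR-196b was at 7.17 ± 6.19 and ranked 335. bta-miR-615 was at 0 in all 20 bulls. Together the members took 0.903% ± 0.406 of the miRNA reads of a library, from 0.217% to 1.71%, and the miR-10 pair made 95.9% ± 3.20 of that share. Mature miRNAs are of nearly the same length, so levels were compared between miRNAs without a correction for length. How efficiently each miRNA entered the libraries was not measured. Ranks and fold differences between miRNAs are therefore those of reads and may differ from those of molecules. In bulk RNA of this kind, fewer cells of a type and less RNA per cell cannot be told apart.

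The order of the levels was tested within bulls on log2(normalized count + 1), with two-sided paired permutation tests of the 3 neighbouring pairs. bta-miR-10b exceeded bta-miR-10a by 0.19 ± 0.28 on the log2 scale (SD, n = 20), in 17 of 20 bulls (permutation p = 0.00049, adjusted p = 0.00049). The difference was small beside the spread between bulls, and it was 0.14 on average without HF replicate 17. bta-miR-10a exceeded bta-miR-196a by 3.75 ± 1.06 on the log2 scale, a 13.5-fold difference found in 20 of 20 bulls (permutation p = 1e-05, the smallest that 100000 resamples can give, adjusted p = 3e-05). bta-miR-196a exceeded bta-miR-196b by 5.42 ± 1.12, or 42.7-fold, again in 20 of 20 bulls (permutation p = 2e-05, adjusted p = 3e-05). The pairs tested were set by the mean levels of these same bulls, so the p-values are no independent support for the order. The interval between the miR-10 and miR-196 pairs far exceeded that within the miR-10 pair. The step from bta-miR-196a to bta-miR-196b depended on the pseudocount, and was 4.07 with a pseudocount of 10.

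**Figure D1:**
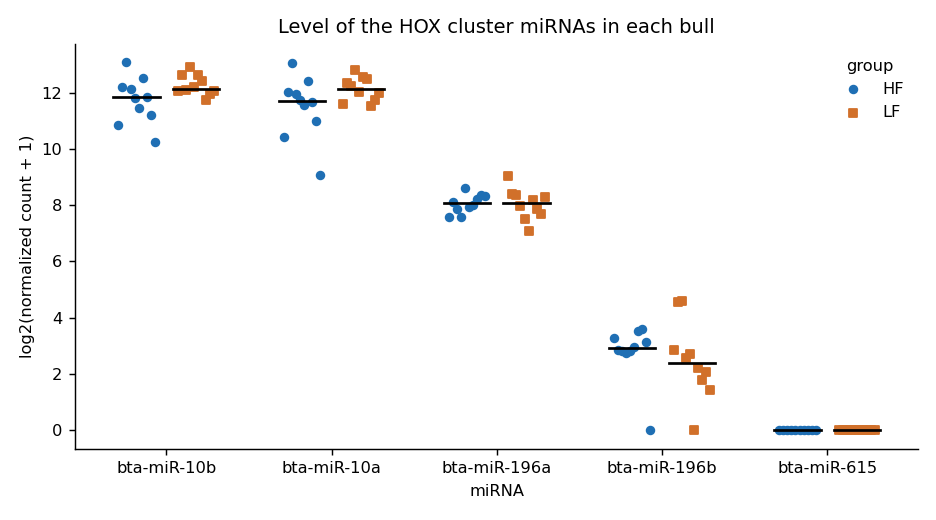
Level of each HOX cluster miRNA in each bull, as log2(normalized count + 1) on the vertical axis, with the miRNAs on the horizontal axis in order of mean level. Circles are the 10 HF bulls, squares the 10 LF bulls and black bars the group medians; the miR-10 pair sits highest, HF replicate 17 is the lowest circle for bta-miR-10a at a normalized count of 533, and bta-miR-615 is at 0 in every bull.

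For bta-miR-615 there was no read among the 23350598 reads of all libraries, which allows a level of up to 0.128 CPM over the pooled libraries. Within a library the limit was between 1.19 and 27.6, so that a low level of bta-miR-615 in the shallow libraries was not detectable. An absence of reads was common in the table, since 298 of the 1029 miRNAs (29.0%) were at 0 in every bull. These limits cover counting error only, because copies made by PCR were not told apart.

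bta-miR-10a, from the HOXB cluster, varied most between bulls of the 3 abundant members. Its lowest level was 533 in HF replicate 17, its median 3985 and its highest 8586 in HF replicate 6, a 16.1-fold range. Without HF replicate 17, which had 58 reads of it, the lowest level was 1384 and the range 6.20-fold. The coefficient of variation was 46.3%, or 40.8% without that bull, whereas counting error alone would give 1.75%. On the log2 scale its SD was 0.88, against a median SD of 0.70 over the 435 miRNAs that passed the filter on low values, and 0.62 against 0.65 without HF replicate 17. The error of library preparation, which adds to that of counting, was not measured.

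bta-miR-10b, from the HOXD cluster, ran from 1204 in HF replicate 17 through a median of 4290 to 8618 in HF replicate 6, a 7.16-fold range. Without HF replicate 17, which had 131 reads of it, the lowest level was 1826 and the range 4.72-fold. Its coefficient of variation was 41.2% (37.0% without that bull) against 1.71% from counting, and its SD on the log2 scale was 0.68 (0.56 without it). The lowest and the highest bull were the same as for bta-miR-10a.

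bta-miR-196a was the steadiest member. Its level ran from 136 in LF replicate 11 through a median of 267 to 528 in LF replicate 1, a 3.89-fold range, on 35 to 770 reads. The coefficient of variation was 31.4% against 7.32% from counting, and the SD on the log2 scale of 0.44 ranked 332 of 435. HF replicate 17, the lowest bull for both miR-10 miRNAs, was at 322 for bta-miR-196a and thus above its median.

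bta-miR-196b was close to the limit of these libraries. It had reads in 18 of 20 bulls, with 188 reads in all and at most 39 in a library, and 6 bulls had 3 reads or fewer. Its lowest level was 0, in HF replicate 17 and LF replicate 11, its median 6.10, and its highest 23.3 in LF replicate 5, followed by 22.8 in LF replicate 4. The other bulls were at 11.0 or lower. The coefficient of variation was 86.3%, whereas counting error alone would give 35.3%. The 2 bulls at 0 were those with the fewest reads, where 3 reads correspond to a normalized count of 27.6 and 9.27, so that the highest level in any other HF bull, 11.0, was under the limit of HF replicate 17 and just above that of LF replicate 11.

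bta-miR-10a and bta-miR-10b moved together across bulls. Over the 20 bulls Pearson's r was 0.97 and Spearman's rho was 0.96 on the log2 scale (permutation p = 1e-05 for each, the smallest that the resamples can give, adjusted p = 6e-05 over 6 pairs of members). Within the HF bulls r was 0.98 and within the LF bulls 0.92, and without HF replicates 2 and 17, the bulls farthest from the median, it was 0.96. For each of the miR-10 miRNAs the other was the miRNA most like it among the 157 well measured ones. Their genes lie in different HOX clusters, but their sequences are near-identical. How the counting assigned reads that matched both was not given in the sources used here, so their separate levels and this correlation are uncertain to that extent.

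The division of reads between the pair nevertheless differed between libraries. bta-miR-10a held 47.9% of the pooled reads of the pair and 46.8% ± 4.59 (SD, n = 20) on average over bulls, or 47.6% ± 2.67 without HF replicate 17. The lowest share was 30.7% in HF replicate 17 (95% Wilson interval 24.6% to 37.6%, from 58 reads of bta-miR-10a and 131 of bta-miR-10b), and the highest was 52.2% in LF replicate 5 (51.5% to 53.0%). In 12 of 20 bulls the interval left out the pooled share. These intervals cover counting error only, and with 1 library per bull a difference between bulls cannot be told from one between libraries. The share was above 50% in 3 bulls, HF replicate 12, LF replicate 5 and LF replicate 13, each with an interval above 50%, and 16 bulls had an interval below 50%. By group, the log2 ratio of bta-miR-10b to bta-miR-10a was 0.24 ± 0.35 in HF and 0.14 ± 0.17 in LF bulls (n = 10 each), and HF replicate 17 was the farthest bull at 1.17. Without it the HF value was 0.14 ± 0.14 (n = 9), the same mean as in LF bulls.

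**Figure D2:**
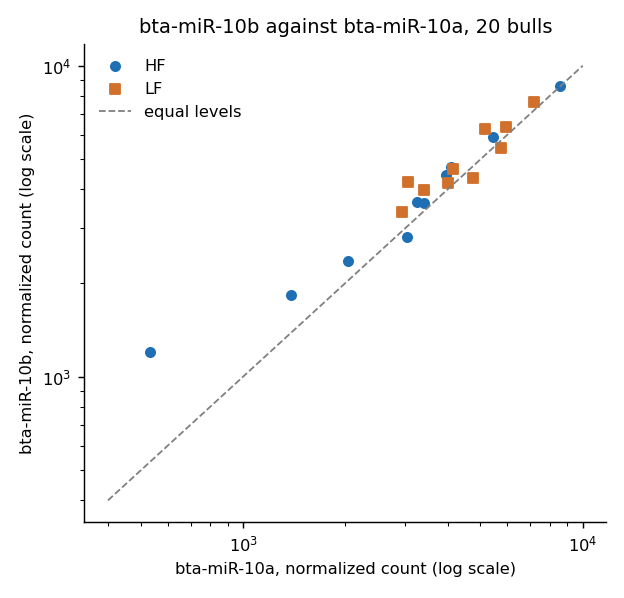
Normalized count of bta-miR-10b against that of bta-miR-10a, both on log axes, with 1 point per bull (circles HF, squares LF) and a dashed line of equal levels. The bulls lie along the line (r = 0.97), 17 of 20 above it, and HF replicate 17 at the lower left stands farthest from it.

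The other pairs of members were less alike. The 5 remaining correlations had r between -0.18 and 0.33, with adjusted permutation p between 0.36 and 0.50, and rho between -0.20 and 0.37, with adjusted permutation p between 0.33 and 0.99. For bta-miR-196a and bta-miR-196b r was 0.33 and rho 0.37 (permutation p = 0.16 and 0.11, adjusted p = 0.36 and 0.33), with r at -0.26 within HF, 0.60 within LF and 0.085 without LF replicates 11 and 1. Within HF bulls bta-miR-196b had r = 0.69 with bta-miR-10a and 0.56 with bta-miR-10b, and within LF bulls 0.014 and 0.016. Without HF replicates 2 and 17 these correlations over all bulls were -0.065 and -0.073. With bta-miR-196a, bta-miR-10a had -0.21 within HF and -0.27 within LF, and bta-miR-10b -0.20 and -0.19. The low reads of bta-miR-196b limit what a correlation with it can show.

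Between HF and LF bulls, none of the 4 members with reads passed both thresholds used here, an unadjusted p under 0.05 and a fold change over 1.5 (0 of 4, limma). Over all 435 miRNAs tested limma called 9, or 2.07%, and none had an adjusted p under 0.05. At an unadjusted p under 0.05 the counts were 0 of 4 members and 15 of 435 miRNAs (3.45%), and the smallest adjusted p over all miRNAs was 0.92. edgeR's quasi-likelihood test, edgeR's likelihood ratio test and DESeq2 on the recovered reads also called 0 of 4 members, against 13 (2.99%), 12 (2.76%) and 11 (2.53%) of all miRNAs. The median log2 fold change of the 4 members was -0.25, and that of all miRNAs tested was 0.0051.

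bta-miR-10a ran from 533 through a median of 3325 to 8586 in HF bulls and from 2935 through 4462 to 7181 in LF bulls. In HF bulls 3 values were below those of every LF bull, 1 was above, and 6 were inside the LF range, so the groups overlapped. The means were 3574 ± 2259 in HF and 4637 ± 1383 in LF (SD, n = 10 each). The log2 fold change of HF over LF was -0.63 with a standard error of 0.34 and a 95% interval from -1.33 to 0.061 (limma p = 0.072, adjusted p = 0.94). Its size passed the fold threshold and its p did not. The size was under the threshold in edgeR's quasi-likelihood test (-0.39, p = 0.21), its likelihood ratio test (-0.39, p = 0.21) and DESeq2 (-0.42, p = 0.18) on the recovered reads, and in the 17 libraries with at least 500000 reads (-0.26, limma p = 0.34). It also moved with single bulls: without HF replicate 17 it was -0.36 (limma p = 0.17), and without HF replicate 6 or HF replicate 14 it passed both thresholds, at -0.81 (limma p = 0.017) and -0.74 (limma p = 0.041).

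bta-miR-10b ran from 1204 through a median of 3641 to 8618 in HF bulls and from 3381 through 4514 to 7622 in LF bulls. Here 4 HF bulls were below every LF bull, 1 was above and 5 were inside the LF range. The means were 3918 ± 2174 in HF and 5049 ± 1329 in LF. The log2 fold change was -0.53 with a standard error of 0.26 and a 95% interval from -1.07 to 0.012 (limma p = 0.055, adjusted p = 0.94). Without HF replicate 17 it was -0.36 (limma p = 0.13). It passed both thresholds without HF replicate 6, HF replicate 14 or LF replicate 18 in turn, at -0.68, -0.62 and -0.59 (limma p = 0.0093, 0.028 and 0.040). In CPM without TMM factors it also passed, at -0.59 (limma p = 0.046, adjusted p between 0.84 and 0.999 over the settings tried). It was smaller in edgeR's quasi-likelihood and likelihood ratio tests (-0.38 in both, p = 0.15 and 0.16), in DESeq2 (-0.41, p = 0.12) and in the libraries with at least 500000 reads (-0.29, limma p = 0.24). As the pair moved together over bulls, its 2 differences are not separate observations.

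The HF bulls were the more spread group for the miR-10 pair, a description that was not tested. The SD of bta-miR-10a on the log2 scale was 1.11 in HF and 0.43 in LF, and that of bta-miR-10b was 0.83 and 0.37. Without HF replicate 17 the HF values were 0.76 and 0.68. HF bulls held the lowest levels of the pair (HF replicates 17 and 2) as well as the highest (HF replicate 6). HF replicates 17 and 2 were also the shallowest and the deepest of all libraries, with 103203 and 3097581 reads. A wider HF spread was not particular to the pair. For bta-miR-99b, a distant relative outside the HOX clusters, the SD was 0.80 in HF and 0.40 in LF. LF bulls were the more spread for bta-miR-196a (0.33 in HF, 0.54 in LF) and bta-miR-196b (1.02 and 1.37).

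bta-miR-196a ran from 191 through a median of 267 to 389 in HF bulls and from 136 through 271 to 528 in LF bulls, so that every HF bull was inside the LF range. The means were 273 ± 63.0 and 280 ± 109, and the log2 fold change was 0.022 with a standard error of 0.20 and a 95% interval from -0.40 to 0.44 (limma p = 0.92, adjusted p = 0.99). Its sign turned under a scaling without TMM factors (-0.040) and without HF replicate 17 (-0.0081), and a 1.5-fold difference lay outside the interval.

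bta-miR-196b was between 0 and 11.0 in HF bulls, with a median of 6.55, and between 0 and 23.3 in LF bulls, with a median of 4.35. In HF 9 of 10 bulls were above the LF median, whereas the 2 highest bulls were LF. The means were 6.93 ± 3.08 and 7.41 ± 8.44, which puts the mean lower and the median higher in HF. The log2 fold change of 0.29 had a standard error of 0.51 and a 95% interval from -0.75 to 1.33 (limma p = 0.57, adjusted p = 0.96), so that a difference in either direction of well over 1.5-fold lay inside the interval. Without HF replicate 17 it was 0.60 (limma p = 0.19). No fold change can be given for bta-miR-615.

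**Figure D3:**
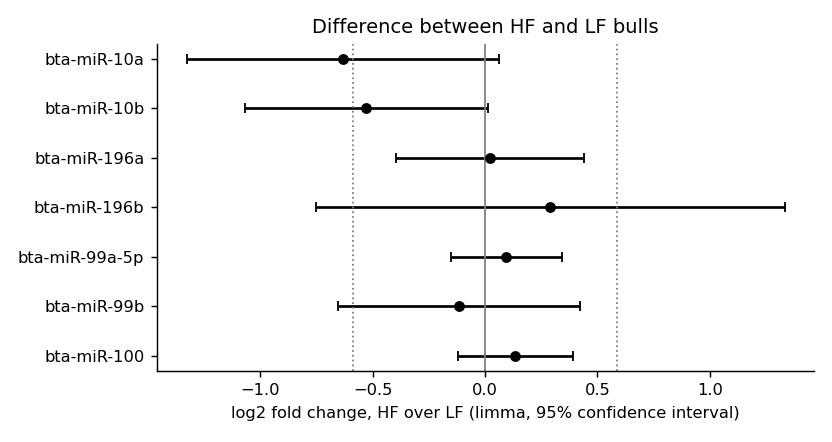
Log2 fold change of HF over LF on the horizontal axis for the 4 members with reads and 3 related miRNAs, from limma with 10 bulls a group. Points are estimates, bars 95% confidence intervals and dotted lines a 1.5-fold change; every interval includes 0, and only the points of bta-miR-10a (-0.63) and bta-miR-10b (-0.53) are below -0.50.

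The miR-99 and miR-100 miRNAs are distant relatives of miR-10 with a shifted seed and lie outside the HOX clusters. None of the 3 passed the thresholds (0 of 3), with log2 fold changes of 0.095 for bta-miR-99a-5p, -0.12 for bta-miR-99b and 0.14 for bta-miR-100 (limma p = 0.43, 0.66 and 0.28).

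The miRNA outside the members most like bta-miR-10a over the 20 bulls was bta-miR-429, of the miR-200 family of epithelia, with a Spearman correlation of 0.83 (0.90 within HF, 0.68 within LF). It was followed by bta-miR-200c of the same family at 0.60 and bta-let-7b at 0.59. For bta-miR-10b bta-miR-429 was again the first, at 0.80 (0.87 within HF, 0.64 within LF), followed by bta-miR-2285n at 0.61 and bta-miR-200c at 0.59. The likeness to bta-miR-200c came from the HF bulls, at 0.88 and 0.85 there against 0.10 and 0.055 within LF. Within LF bulls bta-let-7b was closer to the miR-10 pair than bta-miR-429 was, at 0.93 and 0.83. Within HF bulls bta-let-7b was at 0.66 and 0.70. The 4 bulls lowest in bta-miR-10b, HF replicates 17, 2, 16 and 12, were also the 4 lowest in bta-miR-429. Between groups bta-miR-429 had a normalized count of 182 ± 55.6 in HF and 247 ± 45.9 in LF, a log2 fold change of -0.47 (standard error 0.18, limma p = 0.014, adjusted p = 0.94), short of the fold threshold.

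For bta-miR-196a the most alike miRNAs were bta-miR-495, bta-miR-369-3p and bta-miR-323, with Spearman correlations of 0.66, 0.61 and 0.54. These 3 belong to the large miRNA cluster of the imprinted DLK1-DIO3 locus. Within LF bulls the correlation with bta-miR-495 was 0.84 and within HF bulls 0.42. LF replicate 1, the bull highest in bta-miR-196a, was also highest in bta-miR-495, at 489, and LF replicate 11 was lowest in both.

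For bta-miR-196b bta-miR-143, a miRNA abundant in smooth muscle and other mesenchymal cells, came first at 0.79, with 0.72 within HF and 0.75 within LF. bta-miR-199a-3p and bta-miR-199c followed at 0.53 each, and had nearly the same values in each bull. These rankings were over miRNAs with a mean normalized count of at least 100, from the same libraries, and are a description.

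The levels of the 4 members with reads were set beside library depth and the summed levels of 4 lists of marker miRNAs, 20 relations in all. All listed markers had reads in some bull. The paper's RT-PCR detected no RNA from leucocytes, epithelial cells or contaminating germ cells in the samples tested. Which cells the marker reads came from was not tested here. The summed normalized count of 7 epithelial miRNAs was between 17050 and 24349 in HF and between 17693 and 27773 in LF, that of 7 leucocyte and blood miRNAs between 69.0 and 250 in HF and between 63.2 and 307 in LF, that of 8 stromal, muscle and endothelial miRNAs between 147 and 1961 in HF and between 188 and 2337 in LF, and that of 5 male germ cell miRNAs between 32093 and 77203 in HF and between 25829 and 54584 in LF. The ranges of HF and LF overlapped for each list.

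bta-miR-196b moved with the stromal list, in which bta-miR-143 is the most abundant (mean 439, followed by bta-miR-199a-3p at 129). In LF replicate 4 bta-miR-143 made 1872 of a stromal sum of 2337. As bta-miR-143 was also the miRNA most like bta-miR-196b in these bulls, the relation to the list is not separate from that one. Over 20 bulls r with the list was 0.79 and rho 0.83 (permutation p = 4e-05 and 2e-05, adjusted p = 0.0008 and 0.0004). r was 0.74 within HF, 0.82 within LF and 0.87 over the 17 libraries with at least 500000 reads, and 0.67 without LF replicates 4 and 5. Those 2 bulls had the highest stromal sums, 2337 and 2159, as well as the highest bta-miR-196b. bta-miR-196b was also higher in deeper libraries, with r = 0.67 (permutation p = 0.0019, adjusted p = 0.017) and rho = 0.50 (permutation p = 0.025, adjusted p = 0.10). That relation rested on the 2 shallowest libraries, HF replicate 17 and LF replicate 11, without which r was 0.26. The part of stromal cells in the level of bta-miR-196b was not tested.

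bta-miR-10b was lower where the summed germ cell miRNAs were higher. Most of that sum was bta-miR-34c (mean 35782, followed by bta-miR-449a at 8146), so the relation need not hold for each miRNA of the list. For bta-miR-10b and the sum, r was -0.64 and rho -0.65 over 20 bulls (permutation p = 0.0025 and 0.0022, adjusted p = 0.017 and 0.022). r was -0.75 within HF, -0.36 within LF, -0.72 in the deeper libraries and -0.53 without LF replicate 11 and HF replicate 2. For bta-miR-10a the values were r = -0.52 and rho = -0.55 (permutation p = 0.023 and 0.014, adjusted p = 0.12 and 0.071), within HF -0.63 and within LF -0.15. Both sides of these relations are shares of the same library total, of which the germ cell miRNAs take several percent, and the part of the cell makeup in the levels of the miR-10 pair was not tested.

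With depth, bta-miR-10a had r = 0.17 and rho = -0.39 (permutation p = 0.44 and 0.086, adjusted p = 0.62 and 0.22), and bta-miR-10b had r = 0.025 and rho = -0.46 (permutation p = 0.91 and 0.042, adjusted p = 0.96 and 0.14). Without HF replicate 17 and LF replicate 11 r was -0.63 and -0.66, so that among the remaining bulls the deeper libraries held less of the pair. With the epithelial sum r was 0.41 for bta-miR-10a and 0.42 for bta-miR-10b (permutation p = 0.074 and 0.067, adjusted p = 0.25 for both), and -0.052 and 0.029 without HF replicate 17 and LF replicate 7. That sum says little of bta-miR-429 and bta-miR-200c, at means of 215 and 356 beside 10608 for bta-miR-375, the most abundant of the list. With the leucocyte sum bta-miR-10b had r = -0.37 and rho = -0.58 (permutation p = 0.11 and 0.0090, adjusted p = 0.31 and 0.060). bta-miR-196a reached no adjusted permutation p under 0.31 with depth or any of the lists, its values of r lying between -0.047 and 0.28.

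**Figure D4:**
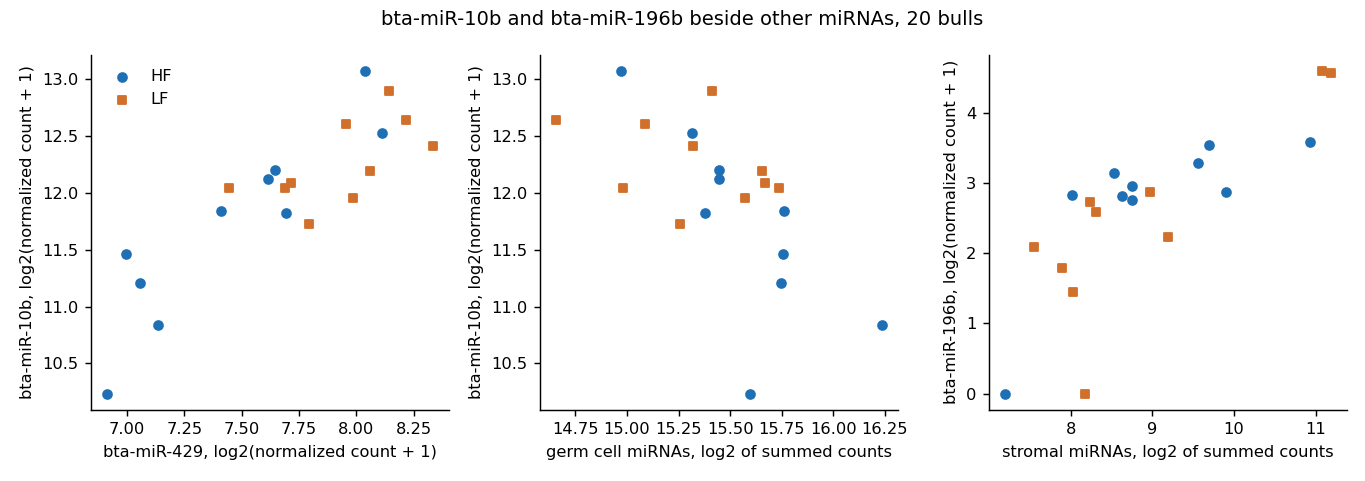
Levels of bta-miR-10b against bta-miR-429 (left) and against the summed male germ cell miRNAs (middle), and of bta-miR-196b against the summed stromal, muscle and endothelial miRNAs (right), all on log2 scales, with 1 point per bull (circles HF, squares LF). bta-miR-10b rises with bta-miR-429 (rho = 0.80) and falls with the germ cell sum (r = -0.64), and bta-miR-196b rises with the stromal sum (r = 0.79), where the 2 squares at the upper right are LF replicates 4 and 5.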

How the data were processed

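Total RNA from spermatozoa was made into small RNA libraries, 1 for each of the 20 bulls. The authors clipped adapters with Cutadapt, discarded reads that were too short or too long and those of other small RNA classes, mapped the remainder with Bowtie and quantified known miRBase miRNAs with miRDeep2. The submitters' processing notes name FastQC 0.11.8, cutadapt 2.6, R 3.4 and edgeR 3.5. The table deposited by the authors holds a normalized signal, CPM divided by a TMM factor, and not raw counts.

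Groups were taken from the labels. In each library values were divided by the value of 1 read, and 95.0% of those above 0 came out within 0.01 of a whole read, with 44 miRNAs having an exception and 0 of the members. In HF replicate 6 the smallest value was a part of a read, so the value of 1 read was taken from its common low values and its reads are less certain. miRNAs under 1 in at least 10 of 20 bulls were removed, which left 435, with 4 of the 5 members. limma 3.58.1 (variance trend, R 4.3.3) was fitted to log2(normalized count + 1) over all 435, HF over LF, with Benjamini-Hochberg adjustment. This scale understates changes of low miRNAs. edgeR 4.0.16 and DESeq2 1.42.0 on the recovered reads, rounded to whole numbers, were alternatives. Permutation tests of single relations were two-sided and drew 100000 resamples (numpy 2.4.6). Spearman correlations and Wilson intervals were computed with scipy 1.17.1. Intervals of shares are Wilson intervals at 95%, and they and the floor of 3 reads cover counting error only. HOX neighbours were taken from RefSeq gene order on ARS-UCD2.0, which is not the build of the alignment, so no coordinates are given.

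The members, the related miRNAs and the marker lists were chosen with earlier results of these data known. Named are the members, the related miR-99 and miR-100 miRNAs, and for each member with reads the 3 miRNAs of mean normalized count of at least 100 with the highest Spearman correlation with it. Rules that needed mature sequences were not applied, and sequences were not used here.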

Additional observations from a re-analysis of the deposited data

Results flagged for a closer look

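In 18 groups of 10 bulls, the gap between the extreme bull and its nearest neighbour, as a share of the range of the group, was compared with 0.466. For normally distributed values and independent groups, 0.466 is exceeded by chance in about 1 in 20 groups, or 0.9 of 18. The values here were normalized counts and ratios of the same members, so that rate is only a rough guide. The limit of 0.466 was exceeded 4 times, of which 3 concern HF replicate 17, the library with the fewest reads. bta-miR-196a was highest in LF replicate 1, at a normalized count of 528.1, with the next LF bull at 335 and the lowest at 135.9 (gap share 0.4923). bta-miR-196b was lowest in HF replicate 17, at 0 with the next HF bull at 5.795 (gap share 0.527), where 3 reads correspond to 27.6. The log2 ratio of bta-miR-10b to bta-miR-10a was highest in HF replicate 17, at 1.174 with the next HF bull at 0.3997 (gap share 0.6029), from 131 and 58 reads. The log2 ratio of bta-miR-196b to bta-miR-196a was lowest in the same bull, at -8.334 with the next at -5.787 (gap share 0.6321), and rests on its 0 reads of bta-miR-196b. The cause of these values was not tested.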

How the results depend on the processing

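Of 104 values under settings other than leaving out a single bull, 87 kept their direction and their side of the thresholds, 12 reversed, 1 newly passed and 4 moved. The count of miRNAs past both thresholds, 9 of 435, was 15 of 731 without a filter, 0 of 158 with at least 10 reads in every bull (limma, 5 at an unadjusted p under 0.05), 1 with a pseudocount of 10, and 7 to 15 without each bull in turn, 15 being without HF replicate 6. bta-miR-10b passed both thresholds in CPM without TMM factors, at -0.59 (limma p = 0.046), with adjusted p between 0.84 and 0.999 over its settings. Leaving out each bull in turn gave a log2 fold change between -0.81 and -0.36 for bta-miR-10a, -0.68 and -0.36 for bta-miR-10b, -0.083 and 0.13 for bta-miR-196a, and 0.013 and 0.60 for bta-miR-196b. Without HF replicates 2 and 17, an alternative chosen after seeing the data, bta-miR-10a was at -0.20 and bta-miR-10b at -0.23 (limma p = 0.39 and 0.29). bta-miR-196a reversed under edgeR's quasi-likelihood test (-0.026), its likelihood ratio test (-0.029), DESeq2 (-0.064), CPM without TMM factors (-0.040) and in libraries of at least 500000 reads (-0.11), and without HF replicates 10 (-0.038), 16 (-0.012) and 17 (-0.0081) and LF replicates 8 (-0.035), 11 (-0.083) and 19 (-0.017). bta-miR-196b reversed under the same 3 count tests (-0.077, -0.068 and -0.095), and was not tested with at least 10 reads in every bull. These reversed values lay inside the 95% intervals of the reported ones, and the cause was not tested. The log2 ratio of bta-miR-196b to bta-miR-196a, -5.42, was -4.07 with a pseudocount of 10 and between -5.50 and -5.26 without each bull, and that of bta-miR-10b to bta-miR-10a stayed between 0.14 and 0.21. Weak correlations changed sign without the 2 farthest bulls for bta-miR-196b with bta-miR-10a (-0.065) and with bta-miR-10b (-0.073), in the deeper libraries for bta-miR-10b with bta-miR-196a (0.035), and within HF for bta-miR-196a with bta-miR-196b (-0.26). CPM without TMM factors and DESeq2 size factors shifted the median over all miRNAs by -0.058 and -0.0055 on the log2 scale. Depth limits bta-miR-196b and bta-miR-615 most. No paired analysis of HF with LF was made, because they were different bulls and the labels match none of them to each other.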
